A study of Homo sapiens with 15 samples.

Results

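The comparison described here set U251 cells harvested 24 h after 6 Gy of ionizing radiation against U251 cells harvested 24 h after 1 Gy. U251 is an established human glioblastoma line, wild type in both groups, and each dose at 24 h had 3 libraries. These 6 libraries were taken by their dose and time labels from the 15 libraries of the RNA-seq series. The other libraries came from cells harvested 6 h after 6 Gy or 1 Gy and from unirradiated cells, which carry a 0 h label but were collected 24 h after the irradiation of the other cells. All groups were wild type and grew in the same medium, with dose and time as the labelled differences. The study treated 1 Gy as a non-effective and 6 Gy as an effective dose, so this contrast asks which transcripts differed between the doses a day after exposure, when both groups had the same time to respond.

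Ionizing radiation breaks both strands of DNA, and the damage checkpoints hold cells in G1 or before mitosis until the breaks are repaired. Genes needed for mitosis are transcribed mainly in G2, under a common control by the MuvB complexes, FOXM1 and NF-Y. Their summed RNA in a culture depends on the number of cells in G2 and M and on the RNA per cell. Irradiated cells that stay arrested also alter their secreted factors, among them chemokines that recruit immune cells, and their matrix and cell surface proteins. In bulk RNA, fewer cells in a phase and less RNA per cell cannot be told apart.

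The 3 libraries of 6 Gy at 24 h held 9590853 to 9880528 counts and those of 1 Gy 8691338 to 11719631. Levels are given as CPM, which are counts scaled to a common library size after TMM normalization, and they depend on transcript length, so they are compared between groups and never between genes. Differences are log2 fold changes of 6 Gy over 1 Gy, and adjusted p-values come from the quasi-likelihood test of edgeR, corrected over all tested genes by the method of Benjamini and Hochberg. A gene is called at an adjusted p under 0.05 and a log2 fold change above 0.5 in size. Where leaving out 1 of the 6 libraries ended the call of a gene, the library is named, in most cases with the log2 fold change obtained without it in parentheses. The fit used 13 libraries, leaving out control replicate 3 and replicate 2 of 1 Gy at 6 h. The study calls the libraries biological replicates, and the p-values measure the spread between them. Of 20 glial and glioblastoma markers, 15 were tested and 4 (OLIG1, OLIG2, AQP4 and PROM1) had no count in any of the 6 libraries. SOX2, a neural stem cell factor, had 273, 243 and 235.5 CPM after 6 Gy and 275, 270.2 and 265 CPM after 1 Gy. GFAP, the intermediate filament of astrocytes, was low, with 4.36, 3.17 and 2.88 CPM after 6 Gy and 3.4, 4.6 and 3.33 CPM after 1 Gy. Of 14 blood cell markers in the table, 3 were tested, and their summed level was 3.45 to 4.31 CPM after 6 Gy and 3.74 to 5.22 CPM after 1 Gy.

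Of 22447 genes, 12719 were tested, and 34 were higher after 6 Gy (0.267% of those tested) and 22 were lower (0.173%), 0.44% together. The log2 fold changes of the higher genes ran from 0.50 to 1.52 (median 0.61), and those of the lower genes from -1.02 to -0.51 (median -0.60). The median over all tested genes was -0.01. Of the 56 called genes, 4 differed by more than 1 on the log2 scale. Without the minimum fold change, 203 genes were higher (1.6%) and 262 lower (2.06%), so the lower genes were the more numerous without that minimum and the higher genes with it. In all 56 called genes the 3 libraries of 6 Gy and the 3 of 1 Gy did not overlap, which also held for 22.2% of all tested genes.

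**Figure D1:**
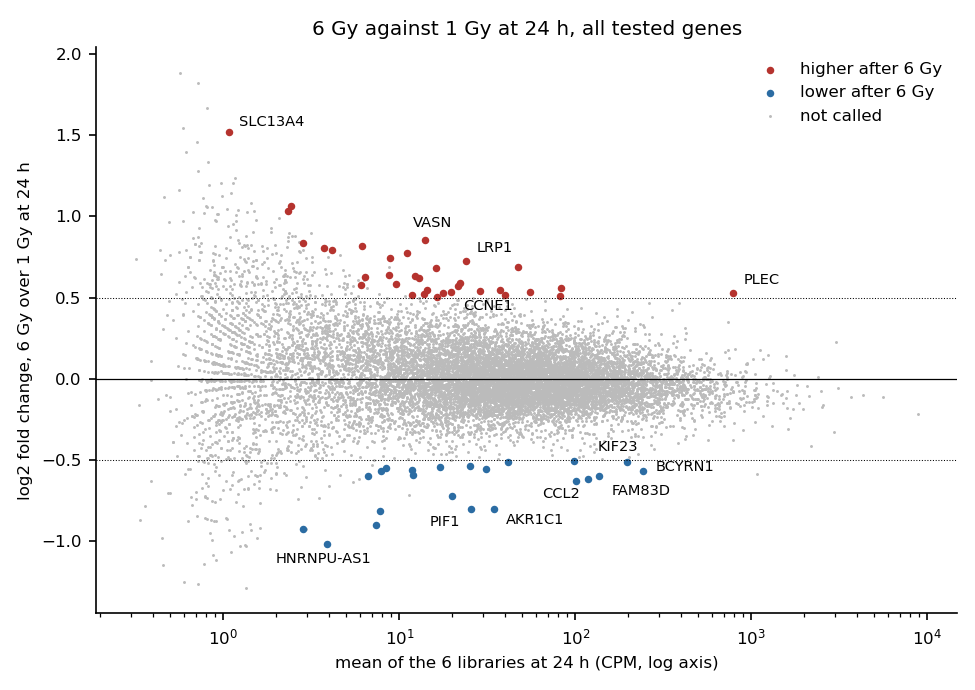
Each point is 1 of the 12719 tested genes, with the mean CPM of the 6 libraries at 24 h on a log axis against the log2 fold change of 6 Gy over 1 Gy. Red points are the 34 genes higher after 6 Gy, blue points the 22 lower, grey points genes not called, and the dotted lines stand at log2 fold changes of 0.5 and -0.5, close to which most called genes lie.

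Genes of the mitotic spindle and of cytokinesis were among those lower after 6 Gy. Of 38 genes tested in this list, PIF1 among them, 4 were lower and 0 higher, and the median log2 fold change was -0.30 with 35 of 38 negative. The list, like the others, was chosen with earlier results of these data known. FAM83D (chr20:37554955-37581703, hg19, plus strand), which brings a casein kinase to the spindle, had 102.5, 112 and 111 CPM in the 6 Gy libraries and 165, 166 and 162 CPM in the 1 Gy libraries (log2 fold change -0.60, standard error 0.0599, edgeR adjusted p = 1.9e-05). No library of one dose came near those of the other, and the control libraries, with 179.6 and 191.5 CPM, lay above both doses. PIF1 (chr15:65107829-65117867, minus strand), a DNA helicase that resolves G-quadruplexes and acts in telomere maintenance, had 19.2, 19.2 and 17.7 CPM after 6 Gy and 31.1, 33.8 and 33.1 CPM after 1 Gy (log2 fold change -0.80, standard error 0.0897, edgeR adjusted p = 4.58e-05). Its control libraries had 35.6 and 38.4 CPM, so the 1 Gy libraries were a little below the control and the 6 Gy libraries well below both. KIF23, the motor subunit of the centralspindlin complex that builds the midbody, had 155, 171 and 161 CPM after 6 Gy and 221, 247 and 226 CPM after 1 Gy (log2 fold change -0.51, standard error 0.063, edgeR adjusted p = 0.000123). CENPE, the kinesin that moves chromosomes to the spindle equator, had 63.1, 90.7 and 82.4 CPM after 6 Gy against 106, 142 and 118 CPM after 1 Gy (log2 fold change -0.63, standard error 0.148, edgeR adjusted p = 0.0223). Its spread within each dose was wide, with replicate 1 lowest in both. KIF23 was not called without replicate 1 of 6 Gy (-0.48), replicate 3 of 6 Gy (-0.50) or replicate 2 of 1 Gy (-0.46). CENPE was not called without replicate 1 of 6 Gy (-0.49), replicate 3 of 6 Gy (-0.65) or replicate 2 of 1 Gy (-0.50). PIF1 stands in this list although its known roles are at telomeres and replication forks, not at the spindle.

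Among regulators of the G2 to M transition fewer genes passed the fold threshold. Of 34 tested, 1 was lower and 0 higher past the fold threshold, with a median of -0.23 and 27 of 34 negative, whereas 16 were lower and 1 higher at an adjusted p under 0.05 with any fold change. CDC25C, the phosphatase that activates the CDK1 and cyclin B complex, was the called member, with 17.3, 22.7 and 21.5 CPM after 6 Gy and 28.3, 30.0 and 31.1 CPM after 1 Gy (log2 fold change -0.54, standard error 0.105, edgeR adjusted p = 0.0065). Its control libraries had 25 and 29.8 CPM and overlapped those of 1 Gy. CDC25C was not called without replicate 1 of 6 Gy (-0.43). PLK1, a Polo-like kinase of mitotic entry, had 205, 181 and 189 CPM after 6 Gy and 263, 264 and 264.5 CPM after 1 Gy, with the 6 Gy libraries below all 1 Gy libraries, and its log2 fold change of -0.46 (standard error 0.058, edgeR adjusted p = 0.00014) stayed just short of the fold threshold. The same held for CDCA8, the borealin subunit of the chromosomal passenger complex (log2 fold change -0.49, standard error 0.0575, edgeR adjusted p = 6.9e-05), for AURKA, the centrosomal mitotic kinase (log2 fold change -0.43, standard error 0.0599, edgeR adjusted p = 0.000418), and for CCNA2, the S and G2 cyclin (log2 fold change -0.41, standard error 0.0569, edgeR adjusted p = 0.000418).

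Cyclins B and the anaphase genes named by the study did not all go the same way. CCNB1, cyclin B1, had 349, 397 and 379 CPM after 6 Gy and 456, 489 and 493 CPM after 1 Gy (log2 fold change -0.35, standard error 0.0694, edgeR adjusted p = 0.0067). CCNB2, cyclin B2, had 180.0, 191 and 184 CPM after 6 Gy and 187.5, 201 and 200.2 CPM after 1 Gy, with a log2 fold change of -0.08 (standard error 0.0621, edgeR adjusted p = 0.491) and a 95% interval of -0.21 to 0.04. PTTG1, the securin that holds back separase, had 152.5, 157 and 153 CPM after 6 Gy and 137, 152 and 145 CPM after 1 Gy, and the value was positive, 0.09 (standard error 0.0658, edgeR adjusted p = 0.464). CDC20, the activator of the anaphase-promoting complex, was at -0.22 (standard error 0.06, edgeR adjusted p = 0.042) and PRC1, which bundles the central spindle, at -0.13 (standard error 0.06, edgeR adjusted p = 0.236). Of 27 centromere and kinetochore genes tested, 0 were called in either direction, 7 were lower at any fold change, and the median was -0.15 with 25 of 27 negative. DEPDC1B, a RhoA pathway regulator of mitotic entry that stands in none of these lists, was also lower, with 29.7, 37.5 and 35.3 CPM after 6 Gy and 46.2, 53.1 and 47.5 CPM after 1 Gy (log2 fold change -0.51, standard error 0.0927, edgeR adjusted p = 0.00408). G2E3, a ubiquitin ligase named for its expression in G2 and M, had 22.7, 28.1 and 24.9 CPM after 6 Gy and 34.4, 41.7 and 35.2 CPM after 1 Gy (log2 fold change -0.55, standard error 0.11, edgeR adjusted p = 0.0074). DEPDC1B was not called without replicate 1 of 6 Gy (-0.42) or replicate 2 of 1 Gy (-0.45). G2E3 was not called without replicate 1 of 6 Gy (-0.48) or replicate 2 of 1 Gy (-0.46).

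Promoters of mitotic genes are known for a cell cycle homology region, TTTGAA or TTCGAA, and for the NF-Y box, CCAAT. Stretches from PIF1 and DEPDC1B are shown because they were the called lower genes that held both motifs. They run from 120 bases before to 20 bases after the start that the count table gives for each gene, read from hg19 in the direction of the gene (PIF1 chr15:65117848-65117987, minus strand, and DEPDC1B chr5:59995974-59996113, minus strand), with both motifs in capitals on either strand. On the other strand CCAAT reads as ATTGG, and the homology region letters read as TTCAAA.
PIF1: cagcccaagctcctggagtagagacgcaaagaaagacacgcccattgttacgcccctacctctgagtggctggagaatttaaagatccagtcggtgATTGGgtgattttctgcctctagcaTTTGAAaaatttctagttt
DEPDC1B: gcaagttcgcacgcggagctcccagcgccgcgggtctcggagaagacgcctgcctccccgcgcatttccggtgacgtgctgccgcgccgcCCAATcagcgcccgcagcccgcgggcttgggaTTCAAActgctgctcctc
Counting the start as 1 and the base before it as -1, PIF1 held ATTGG at -24 and TTTGAA at 2, and DEPDC1B held CCAAT at -30 and TTCAAA at 3. In the longer window from 250 bases before to 50 after the start, KIF23 held only ATTGG at 40, and neither motif was found for CDC25C or CENPE. Only the start in the count table was searched for each gene, so motifs at another start would have been missed. Of the 22 lower genes, 7 (31.8%) held TTTGAA or TTCGAA in that window, 9 (40.9%) held CCAAT and 2 (9.09%) held both. Among the 34 higher genes these were 2 (5.88%), 9 (26.5%) and 0, and among all tested genes 11.6%, 35.8% and 4.92%. Both motifs together were more frequent in the whole mitotic lists, in 15 of 34 G2 and mitosis promoters (44.1%) and 21 of 38 spindle and cytokinesis promoters (55.3%), than among the lower genes. These matches are a description of letters and not of binding.

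At 6 h the same contrast of doses gave 72 genes lower (0.566%) and 2 higher (0.0157%), and no library is shared between the times. Of the 22 genes lower at 24 h, 7 were also lower at 6 h, which is 31.8% of the 24 h list and 9.72% of the 6 h list. They were FAM83D, PIF1, KIF23, CENPE, CDC25C, G2E3 and CCNG2. Of the 34 genes higher at 24 h, 0 were called at 6 h, and their median log2 fold change at 6 h was 0.01, with 18 of 34 positive. For the spindle and cytokinesis genes the median was -0.49 at 6 h and -0.30 at 24 h, and for the G2 and mitosis regulators it was -0.46 at 6 h and -0.23 at 24 h. In the centromere and kinetochore genes the order was the other way, with -0.07 at 6 h and -0.15 at 24 h.

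The interaction of dose and time tests whether the log2 fold change at 24 h minus that at 6 h differs from 0. It was positive in 34 genes (0.267%) and negative in 3 (0.0236%), and 5 of the 56 called genes were among them. PIF1 had 7.3, 6.68 and 7.81 CPM after 6 Gy and 34.9 and 38.6 CPM after 1 Gy at 6 h, a log2 fold change of -2.33, and the difference of 1.53 between the times passed the test (standard error 0.146, edgeR adjusted p = 2.95e-06). The helicase transcript thus stood closer between the doses at 24 h than at 6 h, while still lower after 6 Gy. CCNB1 and AURKA behaved likewise, with differences of 0.83 (edgeR adjusted p = 0.000147) and 0.79 (edgeR adjusted p = 4.82e-05). For KIF23 the difference was 0.04 (edgeR adjusted p = 0.889) and for CDC25C 0.10 (edgeR adjusted p = 0.857), so no change of their dose effect between the times was detected. PLEC and HIST1H2AG were the 2 genes higher at 24 h that passed this test, and NFE2L3 and AKR1C3 were the other lower ones.

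**Figure D2:**
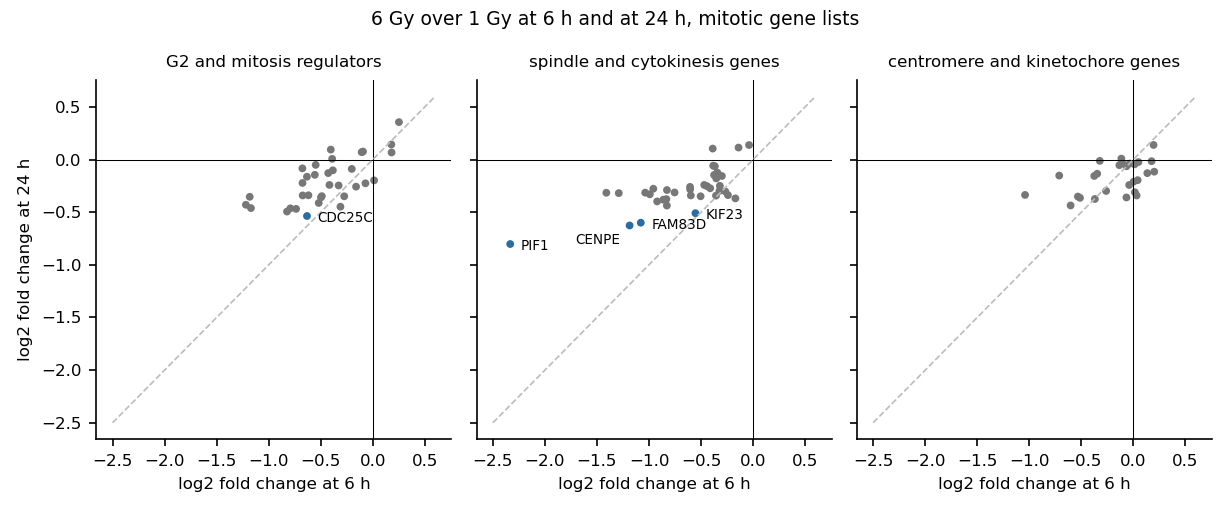
Each point is 1 gene of the G2 and mitosis, spindle and cytokinesis, or centromere and kinetochore list, with its log2 fold change of 6 Gy over 1 Gy at 6 h on the x axis and at 24 h on the y axis. Blue points with names are the 5 list members lower at 24 h, and points above the dashed line of equal values differed less between the doses at 24 h than at 6 h where both values are negative, as for PIF1 with -2.33 and -0.80.

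In a second group of lower genes the 1 Gy libraries stood above both the 6 Gy and the control libraries. CCL2 (chr17:32582296-32584220, hg19), which encodes the chief monocyte chemokine, had 87.1, 88.8 and 102 CPM after 6 Gy, 143.5, 139.5 and 143 CPM after 1 Gy and 38.3 and 42 CPM in the control. Both doses were thus above the control, and the 1 Gy libraries were the highest (log2 fold change -0.62, standard error 0.0683, edgeR adjusted p = 4.58e-05). CXCL14, another chemokine gene, had 6.29, 5.65 and 5.03 CPM after 6 Gy, 10.4, 10.4 and 9.1 CPM after 1 Gy and 4.26 and 3.28 CPM in the control (log2 fold change -0.82, standard error 0.151, edgeR adjusted p = 0.00457). Of 30 NF-kB and secreted inflammatory genes tested, these 2 were lower and 0 higher, the median was -0.14, and 21 of 30 were negative. VCAM1, an adhesion molecule for leukocytes, had 2.64, 3.47 and 3.18 CPM after 6 Gy and 4.68, 4.6 and 5.44 CPM after 1 Gy, without overlap, but did not pass the test (log2 fold change -0.66, standard error 0.234, edgeR adjusted p = 0.122). BIRC3, an NF-kB target that restrains apoptosis, had 11.6, 14.1 and 13.5 CPM after 6 Gy and 18, 18.3 and 17.7 CPM after 1 Gy, past the p threshold but not the fold (log2 fold change -0.46, standard error 0.105, edgeR adjusted p = 0.0177). None of 35 interferon-stimulated genes was called, with a median of 0.06 and 24 positive, and the one with the lowest unadjusted p, IFIT2, had a positive value (log2 fold change 0.64, standard error 0.183, edgeR adjusted p = 0.0529).

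NFE2L3, a transcription factor of the family of NRF2, had 76.9, 84.6 and 81.5 CPM after 6 Gy, 115, 111.5 and 118 CPM after 1 Gy and 73 and 72.4 CPM in the control (log2 fold change -0.51, standard error 0.0652, edgeR adjusted p = 0.000184). Here the 6 Gy libraries lay close to the control and the 1 Gy libraries apart from both. At 6 h its log2 fold change between the doses was 0.10, and the interaction of -0.60 passed the test (edgeR adjusted p = 0.00478). MIR205HG, the host transcript of a microRNA, had 1.62, 2.18 and 2.05 CPM after 6 Gy, 3.32, 3.91 and 4.00 CPM after 1 Gy and 1.81 and 1.35 CPM in the control (log2 fold change -0.92, standard error 0.23, edgeR adjusted p = 0.0285), again with the 1 Gy libraries highest. NFE2L3 was not called without replicate 1 of 6 Gy (-0.47) or replicate 3 of 1 Gy (-0.49). MIR205HG was not called without replicate 1 of 6 Gy (-0.80), replicate 3 of 6 Gy (-0.95), replicate 2 of 1 Gy (-0.89) or replicate 3 of 1 Gy (-0.87). PTPRZ1, a receptor phosphatase of glial cells and the called one of 15 glial markers, had 5.78, 5.85 and 7.29 CPM after 6 Gy and 9.52, 7.94 and 10.5 CPM after 1 Gy (log2 fold change -0.57, standard error 0.154, edgeR adjusted p = 0.0426). Its pattern differed from that of NFE2L3, since its control libraries, with 8.31 and 10.1 CPM, overlapped those of 1 Gy and the 6 Gy libraries lay below both. PTPRZ1 was not called without replicate 1 of 6 Gy (-0.51), replicate 2 of 6 Gy (-0.51), replicate 3 of 6 Gy (-0.68), replicate 1 of 1 Gy (-0.55), replicate 2 of 1 Gy (-0.66) or replicate 3 of 1 Gy (-0.48). CCNG2, cyclin G2, was the called one of 34 genes tested in the p53 target list, and whether p53 controls it was not tested. It had 4.26, 5.85 and 5.85 CPM after 6 Gy and 8.76, 7.48 and 7.77 CPM after 1 Gy (log2 fold change -0.60, standard error 0.163, edgeR adjusted p = 0.0444). CCNG2 was not called without replicate 1 of 6 Gy (-0.46), replicate 3 of 6 Gy (-0.66), replicate 1 of 1 Gy (-0.52), replicate 2 of 1 Gy (-0.64) or replicate 3 of 1 Gy (-0.62).

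The 3 aldo-keto reductase genes AKR1C1, AKR1C2 and AKR1C3, which lie side by side on chromosome 10 and encode enzymes that reduce steroids and lipid aldehydes, were all lower after 6 Gy. AKR1C1 (chr10:5005454-5020158) had 21.4, 25.7 and 27.7 CPM after 6 Gy, 39.2, 44.4 and 47.3 CPM after 1 Gy and 29.8 and 36.2 CPM in the control (log2 fold change -0.80, standard error 0.104, edgeR adjusted p = 0.000189). AKR1C3 (chr10:5090958-5149878) had 13.3, 15.4 and 16.1 CPM after 6 Gy, 23.7, 23.4 and 26.9 CPM after 1 Gy and 19.5 and 18.1 CPM in the control (log2 fold change -0.72, standard error 0.116, edgeR adjusted p = 0.00169). AKR1C2 (chr10:5029968-5060225) had 4.16, 5.65 and 5.44 CPM after 6 Gy, 7.31, 10.1 and 11.4 CPM after 1 Gy and 6.39 and 7.44 CPM in the control (log2 fold change -0.90, standard error 0.178, edgeR adjusted p = 0.0074). In each gene the control mean lay between the low 6 Gy and the high 1 Gy libraries. The coding sequences of these genes are near copies, so reads may be shared among them and the 3 results are not independent. AKR1C2 was not called without replicate 1 of 6 Gy (-0.77) or replicate 2 of 1 Gy (-0.85). At 6 h their log2 fold changes were -0.14, -0.13 and 0.11 for AKR1C1, AKR1C2 and AKR1C3. Of 31 antioxidant and aldo-keto reductase genes tested, these 3 were lower and 0 higher, 4 were lower and 0 higher at any fold change, and the median was -0.05 with 20 negative. GCLM, a subunit of the enzyme that starts glutathione synthesis, was the fourth, at -0.31 (standard error 0.0591, edgeR adjusted p = 0.00604). NQO1, a quinone reductase controlled by NRF2, was at -0.12 (standard error 0.0551, edgeR adjusted p = 0.25) and HMOX1, heme oxygenase, at -0.00 (standard error 0.103, edgeR adjusted p = 0.991). NQO1 and HMOX1 were picked as familiar members of the list after their values were seen.

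Genes higher after 6 Gy included several that encode receptors and secreted proteins. VASN (chr16:4421849-4433529, hg19), a membrane protein that binds TGF-β, had 22.3, 15.9 and 16.1 CPM after 6 Gy and 9.78, 10.8 and 9.44 CPM after 1 Gy (log2 fold change 0.86, standard error 0.152, edgeR adjusted p = 0.00356), and overlaps CORO7 on the other strand. Replicate 1 of 6 Gy was the highest, and all 3 libraries of 6 Gy were above every library of 1 Gy and of the control, which had 10.8 and 7.82 CPM. LRP1 (chr12:57522282-57607125), a large endocytic receptor for lipoproteins and proteases, had 33.4, 27.3 and 29.4 CPM after 6 Gy, 19.4, 13.6 and 21.1 CPM after 1 Gy and 22 and 21.4 CPM in the control (log2 fold change 0.73, standard error 0.128, edgeR adjusted p = 0.0034). ANGPTL2 (chr9:129849628-129885044), a secreted angiopoietin-like protein, had 21.6, 16.9 and 21.3 CPM after 6 Gy and 12.5, 13.1 and 11.5 CPM after 1 Gy (log2 fold change 0.68, standard error 0.121, edgeR adjusted p = 0.00359), and lies on the opposite strand within the bounds of RALGPS1. HSPG2, the basement membrane proteoglycan perlecan, had 67.6, 50.9 and 57.1 CPM after 6 Gy and 42.7, 31.4 and 34.3 CPM after 1 Gy (log2 fold change 0.68, standard error 0.138, edgeR adjusted p = 0.00784). LIPH, a secreted lipase that makes lysophosphatidic acid, had 15.1, 15.1 and 16.7 CPM after 6 Gy, 10.0, 10.0 and 10.4 CPM after 1 Gy and 8.31 and 7.44 CPM in the control (log2 fold change 0.62, standard error 0.113, edgeR adjusted p = 0.00431). The levels of LIPH thus stood in the order of dose, while LRP1 had means of 30.0 ± 3.1 CPM after 6 Gy, 18 ± 3.94 CPM after 1 Gy and 21.7 ± 0.366 CPM in the control (SD, n = 3, 3 and 2). HSPG2 was not called without replicate 1 of 6 Gy (0.57) or replicate 2 of 1 Gy (0.60).

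The lists to which these genes belong showed how far the rest of each pathway went with them. Of 19 LDL receptor family genes tested, LRP1 was higher and 0 lower, with a median of 0.14 and 14 positive, and LRP5, a Wnt co-receptor, was just short of the threshold (log2 fold change 0.47, standard error 0.0857, edgeR adjusted p = 0.00431). Of 37 TGF-β ligands, receptors and transducers, VASN was higher and 0 lower, with a median of 0.10. Of 36 extracellular matrix genes, HSPG2 was higher and 0 lower, but 5 were higher and 1 lower at any fold change, and the median was 0.18 with 29 positive. LAMA5, a laminin chain, had 514, 391 and 446 CPM after 6 Gy and 338, 297 and 344 CPM after 1 Gy (log2 fold change 0.46, standard error 0.0789, edgeR adjusted p = 0.0023), and EFEMP1, a fibulin, was the one that was lower at any fold (log2 fold change -0.29, standard error 0.0575, edgeR adjusted p = 0.0074). Of 34 adhesion, semaphorin and plexin receptors, 0 were called, but 31 of 34 were positive with a median of 0.20, and 4 were higher and 0 lower at any fold change. PTPRS, a receptor phosphatase for proteoglycans, led them (log2 fold change 0.43, standard error 0.0706, edgeR adjusted p = 0.00169). Transcripts of the matrix and adhesion lists were GC-rich, with a median GC content of 55.7% in the matrix list and 60.9% in the adhesion list against 47.7% over all tested genes. Of 21 cholesterol biosynthesis genes, 0 were called, with a median of -0.04 and values from -0.21 to 0.37.

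Receptors of other pathways were also higher. PDGFRB, the platelet-derived growth factor receptor beta, had 20.3, 17.6 and 19.5 CPM after 6 Gy and 13.7, 13.2 and 13.5 CPM after 1 Gy (log2 fold change 0.50, standard error 0.115, edgeR adjusted p = 0.0185), at the edge of the fold threshold. PTCH1, the Hedgehog receptor, had 12.7, 10.1 and 11.7 CPM after 6 Gy and 9.52, 5.87 and 7.22 CPM after 1 Gy (log2 fold change 0.58, standard error 0.151, edgeR adjusted p = 0.0347). KREMEN1, a receptor for the Wnt inhibitor Dickkopf, had 14.7, 16.4 and 13.8 CPM after 6 Gy and 9.52, 7.14 and 12.2 CPM after 1 Gy (log2 fold change 0.63, standard error 0.153, edgeR adjusted p = 0.0243). In PTCH1 and KREMEN1 the highest 1 Gy library came close to the lowest 6 Gy library, while PDGFRB had a narrow spread. PDGFRB was not called without replicate 1 of 6 Gy (0.46), replicate 3 of 6 Gy (0.49) or replicate 2 of 1 Gy (0.49). PTCH1 was not called without replicate 1 of 6 Gy (0.50), replicate 3 of 6 Gy (0.57), replicate 2 of 1 Gy (0.44) or replicate 3 of 1 Gy (0.54). KREMEN1 was not called without replicate 1 of 6 Gy (0.64), replicate 2 of 6 Gy (0.57), replicate 1 of 1 Gy (0.62) or replicate 2 of 1 Gy (0.47). SLC13A4, a sulfate transporter, had the largest log2 fold change of the called genes at a level near 1 CPM, with 1.72, 1.79 and 1.23 CPM after 6 Gy and 0.34, 0.576 and 0.777 CPM after 1 Gy (log2 fold change 1.52, standard error 0.385, edgeR adjusted p = 0.0306). SLC13A4 was not called without replicate 1 of 6 Gy (1.45), replicate 2 of 6 Gy (1.42), replicate 1 of 1 Gy (1.21) or replicate 2 of 1 Gy (1.55).

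Other higher genes encode parts of the cytoskeleton and of vesicle traffic. PLEC, the linker of intermediate filaments, had 1059, 831 and 894 CPM after 6 Gy, 687, 609 and 631 CPM after 1 Gy and 932 and 939 CPM in the control (log2 fold change 0.53, standard error 0.0845, edgeR adjusted p = 0.00159). The 1 Gy libraries were the ones that stood apart, since the control lay within the range of the 6 Gy libraries. Its interaction with time was 0.63 (edgeR adjusted p = 0.0209). MAP1A, a microtubule-associated protein of neurons, had 26.6, 24.6 and 28.6 CPM after 6 Gy, 21.4, 15.8 and 15.2 CPM after 1 Gy and 24.1 and 24.2 CPM in the control (log2 fold change 0.59, standard error 0.117, edgeR adjusted p = 0.0074). TUBB4A, a beta-tubulin, had 22.1, 19.4 and 21.3 CPM after 6 Gy and 14.7, 15.5 and 13.3 CPM after 1 Gy (log2 fold change 0.53, standard error 0.105, edgeR adjusted p = 0.00745). TBC1D16, a GTPase-activating protein for Rab proteins, had the lowest adjusted p of the higher genes, with 104, 90.7 and 96.1 CPM after 6 Gy and 70.7, 67 and 65.8 CPM after 1 Gy (log2 fold change 0.51, standard error 0.0741, edgeR adjusted p = 0.000691). UNC13D, which primes cytotoxic granules for release, had 24.9, 22.4 and 22.7 CPM after 6 Gy and 15.3, 17.8 and 15.3 CPM after 1 Gy (log2 fold change 0.54, standard error 0.104, edgeR adjusted p = 0.00639). These calls rested close to the fold threshold. PLEC was not called without replicate 1 of 6 Gy (0.42) or replicate 2 of 1 Gy (0.49). MAP1A was not called without replicate 2 of 1 Gy (0.52) or replicate 3 of 1 Gy (0.50). TUBB4A was not called without replicate 1 of 6 Gy (0.48) or replicate 3 of 1 Gy (0.47). TBC1D16 was not called without replicate 1 of 6 Gy (0.46) or replicate 3 of 1 Gy (0.49). UNC13D was not called without replicate 1 of 6 Gy (0.49) or replicate 1 of 1 Gy (0.49).

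CCNE1, cyclin E1, which drives entry into S phase, had 36, 33.2 and 32.8 CPM after 6 Gy, 25, 23.6 and 21.4 CPM after 1 Gy and 20.9 and 24 CPM in the control (log2 fold change 0.54, standard error 0.0886, edgeR adjusted p = 0.00188). The 1 Gy and control libraries overlapped and the 6 Gy libraries lay above both. CCNE1 was not called without replicate 1 of 6 Gy (0.49) or replicate 3 of 1 Gy (0.48). Of 44 G1/S and replication genes tested, it was the called one, with 22 positive, 22 negative and a median of 0.00. E2F2, a transcription factor of S phase entry, was past the p threshold but not the fold (log2 fold change 0.40, standard error 0.0769, edgeR adjusted p = 0.00639), and so was CDKN1A, the p21 inhibitor of CDKs, among the p53 targets (log2 fold change 0.39, standard error 0.0657, edgeR adjusted p = 0.0023). Over the 34 tested genes of the p53 target list 0 were higher and 1, CCNG2, was lower, with a median of 0.01. Of 43 damage response and break repair genes, 0 were called, the median was -0.01 and all values lay between -0.28 and 0.25. HIST1H2AG, a histone H2A gene, had 4.06, 4.56 and 5.65 CPM after 6 Gy, 2.55, 2.53 and 3.11 CPM after 1 Gy and 1.6 and 1.16 CPM in the control (log2 fold change 0.80, standard error 0.205, edgeR adjusted p = 0.0311), in the order of dose. Messages of this gene class normally lack a poly(A) tail and the libraries were made from poly(A) RNA, and of 13 histone genes tested the other 12 were not called, with a median of 0.14 over the list. HIST1H2AG was not called without replicate 3 of 6 Gy (0.67), replicate 1 of 1 Gy (0.75) or replicate 2 of 1 Gy (0.76). HIST1H1C, a linker histone, had a negative value, with 17.2, 16.9 and 18.9 CPM after 6 Gy and 22.5, 22.3 and 26.9 CPM after 1 Gy (log2 fold change -0.43, standard error 0.107, edgeR adjusted p = 0.0267).

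Further genes with low adjusted p can be given more briefly. Among the higher ones, NPTXR, the neuronal pentraxin receptor, was at 0.57 (standard error 0.0964, edgeR adjusted p = 0.00229) and HELZ2, a helicase coactivator of nuclear receptors, at 0.53 (standard error 0.0926, edgeR adjusted p = 0.0029). NPTXR had 28.3, 24.6 and 23.9 CPM after 6 Gy and 16.5, 16.5 and 18.9 CPM after 1 Gy, and HELZ2 had 72.4, 59.6 and 64.1 CPM after 6 Gy and 49.2, 39.4 and 46.4 CPM after 1 Gy. In both genes the control libraries lay between the doses. NPTXR was not called without replicate 1 of 6 Gy (0.49). HELZ2 was not called without replicate 1 of 6 Gy (0.45) or replicate 2 of 1 Gy (0.45). FAM131A, which overlaps CLCN2 on the opposite strand, had 8.11, 6.94 and 8.62 CPM after 6 Gy and 4.93, 4.26 and 4.11 CPM after 1 Gy (log2 fold change 0.82, standard error 0.154, edgeR adjusted p = 0.00528). Among the lower ones, METTL4, an adenine methyltransferase, had 14.1, 13.5 and 13.8 CPM after 6 Gy, 20.4, 20.3 and 19.5 CPM after 1 Gy and 22.4 and 23.4 CPM in the control (log2 fold change -0.54, standard error 0.102, edgeR adjusted p = 0.00529), a narrow spread within each dose. GTDC1, which encodes a predicted glycosyltransferase, had 8.82, 10.8 and 8.83 CPM after 6 Gy and 13.3, 16 and 13 CPM after 1 Gy (log2 fold change -0.56, standard error 0.126, edgeR adjusted p = 0.0171). HNRNPU-AS1, a noncoding transcript that overlaps COX20, had 2.13, 2.78 and 2.88 CPM after 6 Gy and 6.21, 5.06 and 4.33 CPM after 1 Gy (log2 fold change -1.02, standard error 0.216, edgeR adjusted p = 0.0117). GTDC1 was not called without replicate 1 of 6 Gy (-0.51), replicate 3 of 6 Gy (-0.51) or replicate 2 of 1 Gy (-0.47). HNRNPU-AS1 was not called without replicate 1 of 6 Gy (-0.90) or replicate 1 of 1 Gy (-0.85). The other lower genes were FGF14, TRDMT1 and BCYRN1, the last with table bounds on the X chromosome that span many other genes, so its value is uncertain. The other higher genes named here were ABCA7, DOCK6, TRANK1, EMC3-AS1, SLC25A42, RREB1, SLC45A1, EFR3B, RAB43, CREB3L1, TMEM86B, KIAA0754 and FAM83H, with log2 fold changes between 0.51 and 1.06. The calls of these genes each depended on single libraries, and the log2 fold change without the first library named stands in parentheses. FGF14 (-0.52), ABCA7 (0.43) and DOCK6 (0.48) were not called without replicate 1 of 6 Gy or replicate 2 of 1 Gy, TRDMT1 (-0.54) and TRANK1 (0.68) also without replicate 3 of 6 Gy, and SLC25A42 (0.44) and RREB1 (0.45) also without replicate 3 of 1 Gy. BCYRN1 (-0.45) was lost without replicate 1 or 3 of 6 Gy or replicate 2 or 3 of 1 Gy, CREB3L1 (0.92) without replicate 1 or 2 of 6 Gy or replicate 2 or 3 of 1 Gy, and KIAA0754 (0.78) without any library of 6 Gy or replicate 2 or 3 of 1 Gy. EMC3-AS1 (0.58) was lost without replicate 3 of 6 Gy or any library of 1 Gy. EFR3B (0.44), RAB43 (0.83) and FAM83H (0.36) were lost without replicate 1 of 6 Gy or any other library except replicate 2 of 6 Gy, and SLC45A1 (0.50) and TMEM86B (0.66) without replicate 1 of 6 Gy or any other of the 6. RAB43 and KIAA0754 share a strand with overlapping genes, and the sources used here do not say whether reads were counted by strand.

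Several pathways had no called gene, but 0.44% of all tested genes were called, so 0 calls in a short list says little. The medians were 0.00 for 32 apoptosis regulators, 0.03 for 27 TGF-β target genes, 0.08 for 20 genes of the SREBP system and lipid synthesis, -0.04 for 34 hypoxia and glycolysis genes and -0.01 for 31 endoplasmic reticulum stress genes, close to the median of -0.01 over all tested genes. Cytosolic ribosomal protein genes had a median of -0.12 with 70 of 75 negative and 0 called. Glial markers as a list had a median of -0.19. VIM, the vimentin filament gene, had 1369, 1497 and 1442 CPM after 6 Gy and 1676, 1928 and 1726 CPM after 1 Gy, lower without overlap but not past the fold (log2 fold change -0.31, standard error 0.0674, edgeR adjusted p = 0.0149). The summed level of the glial markers was 3840 to 3990 CPM after 6 Gy and 4310 to 4620 CPM after 1 Gy, and its part in the other differences was not tested. Of 9 epithelial and 8 neuron markers tested, 0 were called, beside 0.44% of all tested genes.

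Against the unirradiated cells, 710 genes were higher (5.58%) and 278 lower (2.19%) after 6 Gy, and 405 were higher (3.18%) and 157 lower (1.23%) after 1 Gy, 2 comparisons that share the control libraries. The genes called between the doses had several orders of their group means. Of the 34 higher genes, the control mean lay between 1 Gy and 6 Gy in 18, below 1 Gy in 13 and at or above 6 Gy in 3. Of the 22 lower genes, it lay between 6 Gy and 1 Gy in 11, above 1 Gy in 7 and at or below 6 Gy in 4. So the group means stood in the order of dose in 13 higher and 7 lower genes, among them LIPH, HIST1H2AG, FAM83D and PIF1. This order is of means alone, and some steps were very small, as for ANGPTL2 with 12.32 CPM in the control and 12.39 CPM after 1 Gy. Against the control, 1 Gy was called higher in 1 of the 34 higher genes, HIST1H2AG, and lower in 3, PLEC, EMC3-AS1 and KIAA0754. Of the 22 lower genes, 1 Gy was called lower in 0 and higher in 4, CCL2, CXCL14, NFE2L3 and MIR205HG. After 6 Gy, 18 of the 34 higher genes were called higher than the control and 0 lower. Among the 22 lower genes 8 were called lower than the control after 6 Gy and 2 higher. Genes chosen as baits for chromosome contacts in the same study had small differences between the doses or wide intervals. BTG2, an antiproliferative p53 target, was at 0.26 (standard error 0.165, edgeR adjusted p = 0.421) with a 95% interval of -0.09 to 0.60, and PRSS35, a serine protease, at -0.20 (standard error 0.0988, edgeR adjusted p = 0.279) with -0.40 to 0.01. TRIM29 was at 0.03 (standard error 0.279, edgeR adjusted p = 0.969) with a wide interval of -0.55 to 0.61, and PPIB, a cyclophilin of the endoplasmic reticulum, at -0.03 (standard error 0.0871, edgeR adjusted p = 0.908) with -0.21 to 0.16. HCRTR2 had 2 counts in all over the 6 libraries and was not tested.

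**Figure D3:**
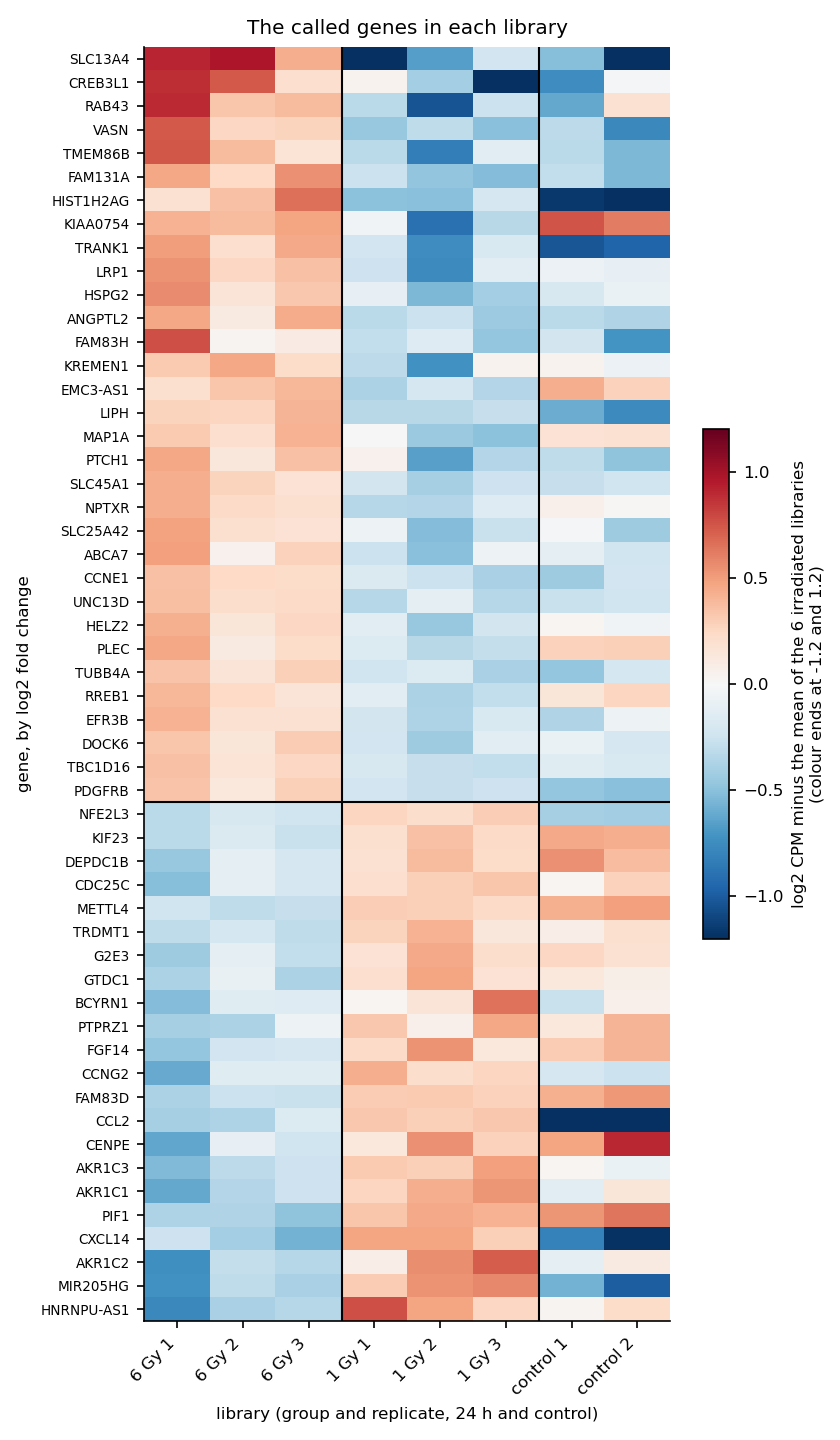
Of the 56 called genes, 54 are shown, ordered by log2 fold change from top to bottom, with the libraries of 6 Gy at 24 h, 1 Gy at 24 h and the control as columns. Colour is the log2 CPM of a library minus the mean of the 6 irradiated libraries, red above and blue below, and replicate 1 of 6 Gy is the reddest of the 6 Gy libraries in 24 of the 32 higher genes shown and the bluest in 18 of the 22 lower genes.

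Replicate 1 of 6 Gy, transcript GC content and transcript length moved with these differences. Replicate 1 of 6 Gy was the highest of its group in 25 of the 34 higher genes and the lowest in 18 of the 22 lower genes. How often it was the highest or lowest over all tested genes was not counted. Without it, 13 genes were higher and 13 lower, of which 8 and 7 were among those called with it. Without replicate 2 of 1 Gy, 12 were higher and 12 lower. The longest annotated transcript of the higher genes had a median GC content of 60.3%, that of the lower genes 42.2% and that of all tested genes 47.7%. The median log2 fold change was -0.073 in the 20% of genes with the lowest GC content and 0.096 in the 20% with the highest, which held 19 of the higher and 1 of the lower genes. In the GC-richest 10% of genes, replicate 1 of 6 Gy deviated from the mean of the 6 libraries by a median of 0.21 on the log2 scale, replicates 2 and 3 by -0.055 and 0.015, and the 1 Gy libraries by -0.074, -0.084 and -0.003. With a correction for GC content, 22 genes were higher and 24 lower (47.8% higher, against 60.7% without it), and 15 and 14 of them were among those called without it. CCL2, FAM83D, PIF1, LRP1 and VASN were among those that kept their call, and KIF23 (-0.46, adjusted p = 3.86e-05), NFE2L3 (-0.49, adjusted p = 5.06e-05), DEPDC1B (-0.45, adjusted p = 0.00385), G2E3 (-0.45, adjusted p = 0.0106), METTL4 (-0.45, adjusted p = 0.0155), PLEC (0.39, adjusted p = 0.00227), NPTXR (0.48, adjusted p = 0.00261) and HELZ2 (0.40, adjusted p = 0.00575) among those that did not, given with their log2 fold changes and edgeR adjusted p-values after the correction. These 8 genes still passed the p threshold and were not called because their fold changes then lay under 0.5 in size. Other genes no longer passed the p threshold after the correction. Among them were CCNG2, PTPRZ1, SLC45A1, KIAA0754, CREB3L1, EFR3B, RAB43, TMEM86B and FAM83H, with edgeR adjusted p-values from 0.0519 for CCNG2 to 0.0802 for SLC45A1. The median transcript length was 6156 bases in the higher genes, 3723 in the lower genes and 3949.5 in all tested genes. The longest 20% of genes held 15 of the higher and 6 of the lower genes. The median log2 fold change was 0.045 in the longest 20% and -0.042 in the shortest 20%. With a correction for transcript length, 34 genes were higher and 19 lower, and 24 and 18 of them were among those called without it. The part of GC content, of transcript length and of replicate 1 of 6 Gy in each result was not tested further.

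**Figure D4:**
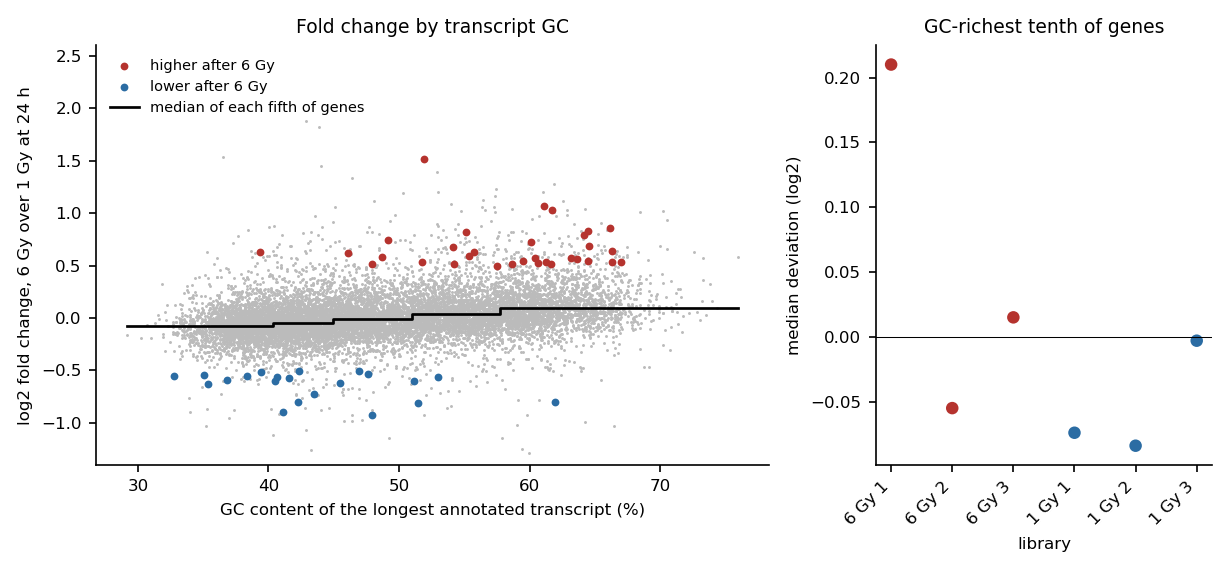
On the left, each point is a tested gene, with the GC content of its longest annotated transcript in percent against its log2 fold change of 6 Gy over 1 Gy at 24 h, and the black line is the median in each of 5 equal bins of genes by GC content, from -0.073 to 0.096. On the right, each point is a library, with the median deviation of the GC-richest 10% of genes from the mean of the 6 libraries on the log2 scale, 0.21 in replicate 1 of 6 Gy and 0.015 or less in the others.

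Of the 56 genes, 8 were called in the same direction under each of 29 other settings of the analysis. They were LRP1, VASN and ANGPTL2 among the higher genes and FAM83D, PIF1, CCL2, AKR1C1 and AKR1C3 among the lower genes. Without replicate 1 of 6 Gy, their log2 fold changes were 0.64, 0.68 and 0.62 for LRP1, VASN and ANGPTL2, and -0.56, -0.82, -0.57, -0.70 and -0.64 for FAM83D, PIF1, CCL2, AKR1C1 and AKR1C3. DESeq2 gave no adjusted p for CXCL14, LIPH and FAM131A, and a gene without one was counted as not called. These genes were called under the 28 other settings, so they did not fail the DESeq2 test. AKR1C2, CENPE and HIST1H2AG were also among the genes not called with DESeq2. With scaling to library totals or to upper quartiles KIF23, DEPDC1B and NFE2L3 were among those no longer called. Without replicate 1 of 6 Gy, the calls numbered 2 in the spindle and cytokinesis list, 2 in the G2 and mitosis list, 2 in the antioxidant list and 2 in the inflammatory list, all lower, and 0 in the G1/S, matrix and p53 lists.

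**Figure D5:**
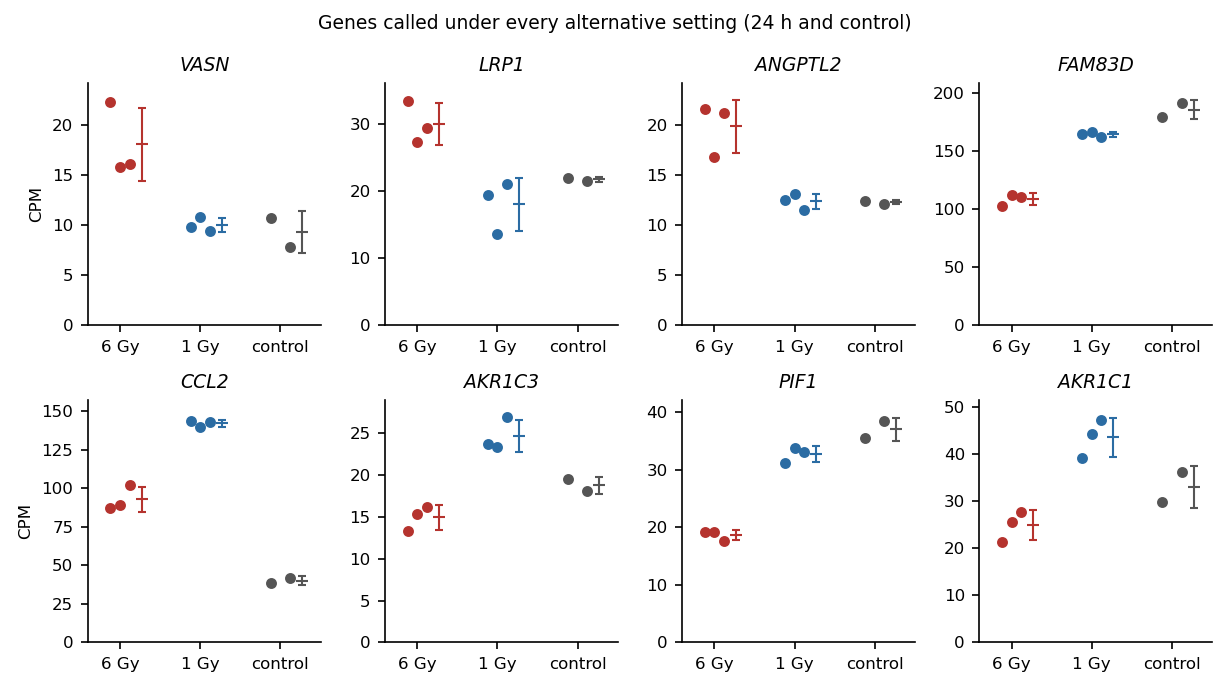
CPM of the 8 genes called under each of the 29 other settings, with 1 point per library of 6 Gy at 24 h, 1 Gy at 24 h and the control, and beside them the mean with its SD (n = 3, 3 and 2). VASN, LRP1 and ANGPTL2 lie above 1 Gy in every 6 Gy library, the other 5 genes below it, and CCL2 is the one in which every library of both doses lies above the control.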

How the data were processed

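Libraries were prepared from poly(A) RNA of U251 cells (NEBNext Ultra). The authors deposited raw read counts of 22447 genes in 15 libraries, made with TopHat on hg19 and HTSeq per the labels, whose versions the sources used here do not name. A second deposited table, with the authors' own fold changes, p-values and library values, was not used. The counts were analysed with edgeR 4.0.16 under R 4.3.3: filterByExpr (minimum count 10, total 15, large group size 10, proportion 0.7) kept 12719 genes, TMM scaled the libraries, and 1 quasi-likelihood fit over 5 groups and 13 libraries without control replicate 3 and replicate 2 of 1 Gy at 6 h, as in the study's own list, gave each contrast with 8 residual and 13.5 prior degrees of freedom. The biological coefficient of variation was 6.26%. The standard error is the size of the log2 fold change over the root of F. Steps were tested on simulated data. The members and the 31 gene lists were chosen with earlier results of these data known.

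All called genes may be named, except that 2 of the 34 higher genes are not reported here. Library values are given for up to 15 called genes per direction with the lowest adjusted p, a mean of 1 CPM or more and groups that did not overlap, and for called list members, genes the study names and up to 4 further members per list with the lowest unadjusted p. PDGFRB, PTCH1, KREMEN1, SLC13A4 and MIR205HG were given library values, and NQO1, HMOX1, SOX2 and GFAP were named, after their values were seen. Transcript length and GC content come from the longest GENCODE transcript of 21064 genes (93.8%), and promoter letters from GRCh37, the assembly of hg19. Alternatives were other scalings, filters, tests (DESeq2 1.42.0, and the exact and likelihood ratio tests of edgeR), library sets, thresholds and the replicate number as a block. Corrections for GC content and length were chosen after seeing the data. Figures were drawn with matplotlib 3.10.9.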

Additional observations from a re-analysis of the deposited data

Results flagged for a closer look

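For 12 of the genes followed by name, the log2 fold change of 6 Gy over 1 Gy differed between 24 h and 6 h by the interaction test of edgeR (adjusted p under 0.05, difference above 0.5 in size). The difference, 24 h minus 6 h, was 1.53 for PIF1, 0.83 for CCNB1, 0.79 for AURKA, 0.71 for PLK1, 0.59 for CCNB2 and 0.52 for DEPDC1, all of which were lower after 6 Gy at 6 h. It was 2.13 for HIST1H2AG, 0.64 for LAMA5, 0.63 for PLEC and 0.57 for PTPRS, which were not called at 6 h. In the opposite direction it was -0.83 for AKR1C3 and -0.60 for NFE2L3. The test was passed by 34 genes in one direction and 3 in the other, among them 4 of the G2 and mitosis list, 8 of the spindle and cytokinesis list and 2 of the centromere and kinetochore list, so the 12 are not all of them. Groups of 3 libraries were not searched for single outlying values.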

How the results depend on the processing

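None of the 56 called genes changed sign under any of the 29 alternatives, and the gene kept least often, TMEM86B, was called in 10 of them. Over 181 named genes there were 5243 values under alternatives: 4824 kept their side of the thresholds, and 331 lost and 80 gained a call. The other 8 changed sign, in genes called neither in the main fit nor under that alternative. The counts moved more. Against 34 genes higher and 22 lower (60.7% higher), library totals gave 63 and 17 (78.8% higher), upper quartile scaling 49 and 19 (72.1% higher), no filter on low counts 65 and 30, DESeq2 20 and 13, the likelihood ratio test 68 and 29, the exact test 65 and 26, an adjusted p under 0.01 17 and 13, and no minimum fold change 203 and 262. In the DESeq2 counts, genes without an adjusted p, among them CXCL14, LIPH and FAM131A, counted as not called. A GC correction gave 22 and 24, and with replicate 1 of 6 Gy left out as well 14 and 17, both chosen after seeing the data. Leaving out 1 library gave 12 (without replicate 2 of 1 Gy) to 66 (without replicate 2 of 6 Gy) higher and 12 to 37 lower. The cause was not tested.

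For the interaction (34 higher, 3 lower), no filter gave 90 and 14, DESeq2 46 and 6, the likelihood ratio test 67 and 11, all 15 libraries 19 and 2, an adjusted p under 0.01 15 and 1, no minimum fold change 41 and 8, and the GC correction 41 and 5. Leaving out 1 library gave 19 (without replicate 2 of 6 Gy at 6 h) to 52 (without replicate 1 of 1 Gy at 24 h) higher and 1 to 7 lower.

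Same-numbered libraries of 6 Gy and 1 Gy at 24 h deviated together only weakly (correlations of 0.071, 0.05 and 0.106 for replicates 1, 2 and 3), so the numbers were not taken to pair them, although each library correlated best with its own number. With the replicate number as a block, 76 genes were higher and 33 lower, and the interaction had 75 and 13.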
